A study of Mus musculus with 10 samples.

Results

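The genes described here are the mouse MHC genes and the genes of antigen processing, measured in hepatic stellate cells with and without amphiregulin (Areg). They were chosen by name: every protein-coding gene whose symbol begins with H2-, plus B2m, Tap1, Tap2, Tapbp, Psmb8, Psmb9, Psmb10, Psme1, Psme2, Erap1, Nlrc5, Ciita, Cd74 and Ctss. That rule took 48 of the 36047 genes in the data, of which 22028 are protein-coding. The class I side has 35 of them, of which 24 encode heavy chains, and the class II side has 12. The remaining gene, H2-Ke6, lies in the MHC region but encodes a hydroxysteroid dehydrogenase.

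Hepatic stellate cells are the vitamin A-storing pericytes of the liver sinusoid, and the series title places them in a study of Areg from regulatory T cells in liver fibrosis. All 10 cultures were quiescent stellate cells from the livers of C57BL/6 male mice, kept in culture for 5 h and then for 4 h in starving medium. The Areg group of 5 libraries received 500 ng/mL of recombinant mouse Areg, a ligand of the EGF receptor, during those 4 h, and the control group of 5 libraries did not. Neither the age of the mice nor whether each library came from a separate animal or culture is stated in the labels. The p-values here weigh the difference between groups against the variation among libraries of a group. They cannot separate animals from technical repeats.

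MHC class I molecules pair a heavy chain with the light chain beta-2 microglobulin and show peptides from inside the cell to CD8 T cells. Those peptides are cut by the proteasome, in an immune form when Psmb8, Psmb9 and Psmb10 replace the standard catalytic subunits, carried into the endoplasmic reticulum by the Tap1 and Tap2 transporter, trimmed by Erap1 and loaded with the help of tapasin (Tapbp). MHC class II molecules are guarded by the invariant chain Cd74, which the protease cathepsin S (Ctss) trims, and show endosomal peptides to CD4 T cells. Nlrc5 is the main transcriptional activator of class I genes and Ciita that of class II genes, and interferon gamma is the classical inducer of both sets. Stellate cells are nonprofessional antigen-presenting cells of the liver.

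The libraries held 10125184 to 20057962 estimated counts. Controls 3 and 4 stood apart on the first principal component of all tested genes, at 46.6 and 28.6 against -16.5 to 0.46 for the other 8, and that component held 35.5% of the variance. They were also the libraries with the fewest counts, at 10125184 and 10950603 against 14365027 or more in the others. The part of depth in that separation was not tested. All 12 stellate cell markers were detected, at a summed 11760 to 12522 CPM (counts scaled to library size) in controls and 11349 to 11704 with Areg, 4 of them falling (among them Lrat, Cygb and Ecm1) and 1 rising (Nes) by the test used below. Markers of other liver cells were present too. The 15 macrophage markers, none of them at 0 throughout, summed to 777 to 864 CPM in controls and 791 to 849 CPM with Areg, and 1 of them, Cd14, rose. The 10 sinusoidal endothelial markers summed to 6168 to 6745 and 6186 to 6247 CPM, with Stab1 falling. The 8 T and NK cell markers summed to at most 2.07 CPM in any library, and none reached the level needed for a test. By the same test, 8.34% of all genes tested were called higher and 8.32% lower. The part of these cells in the values below was not tested.

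Areg left most of this gene set without a detectable difference. Each gene was compared by edgeR's quasi-likelihood test on its estimated counts, with p-values adjusted over all 13362 genes that passed a filter on low counts and a threshold of 0.05. Of the 48 genes, 32 passed that filter. Among those 32, H2-Q6 and H2-Q7 fell, Ctss rose and 29 did not pass the test. The 3 genes called are 9.38% of the 32 tested, against 16.7% of all genes tested. By direction, all genes tested were called higher in 8.34% and lower in 8.32%, and the set's share lies below the background. The median log2 fold change, Areg minus control, was -0.10 over the 32 genes, with 23 below 0, against -0.01 over all genes tested. An unadjusted p under 0.05 was reached by 12 of the 32 (37.5%), near the 31.4% of all genes tested. Of those 12, 10 had lower values with Areg, or 31.2% of the set against 15.8% of all genes tested.

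**Figure D1:**
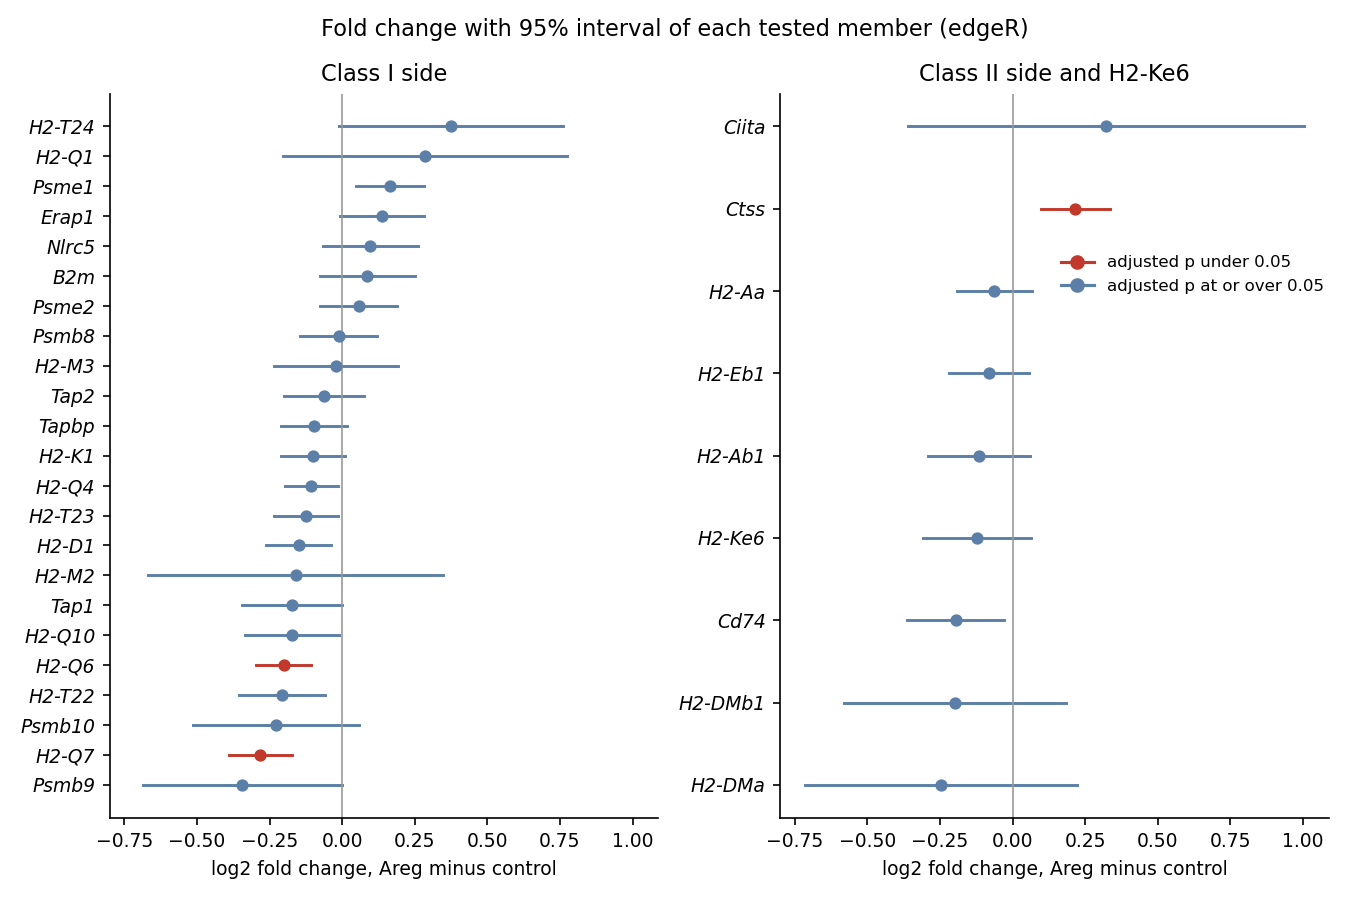
Log2 fold change (Areg minus control, x axis) of each of the 32 tested genes with its 95% interval from edgeR, class I side on the left, class II side and H2-Ke6 on the right. Red marks the 3 genes that passed the test, H2-Q7 at -0.28, H2-Q6 at -0.20 and Ctss at 0.22, and most other intervals cross 0.

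The other 16 genes had almost no counts. H2-M1, the 6 genes H2-M10.1 to H2-M10.6 and H2-M11 were listed at 0 in all 10 libraries. H2-DMb2, H2-Eb2, H2-M5, H2-M9, H2-Oa, H2-Ob, H2-Q2 and H2-T3 had 3 to 41 counts summed over the 10 libraries and never exceeded 0.570 CPM in one. A difference in these genes was not detectable at this depth.

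Both genes that fell were class I heavy chains. H2-Q6 and H2-Q7 belong to the Qa-2 family of non-classical class I molecules, whose genes lie close together on chromosome 17. On GRCm38, H2-Q7 is annotated at chr17:35439155-35443773 and H2-Q6 at chr17:35424850-35430055, both on the plus strand. Their promoters, from RefSeq's GRCm38.p6 table and shown with that of the classical heavy chain H2-K1 for comparison, run over the 250 bases before each start. They lie at chr17:35438905-35439154 (plus strand) for H2-Q7, chr17:35424600-35424849 (plus strand) for H2-Q6 and chr17:34000348-34000597 (minus strand) for H2-K1, and are written 5′ to 3′ along the gene. Capitals mark the kappaB element (the first capital run of the H2-K1 line, 11 letters), the interferon-stimulated response element letters GAANNGAAA and the CCAAT box, each searched on both strands.
H2-Q7: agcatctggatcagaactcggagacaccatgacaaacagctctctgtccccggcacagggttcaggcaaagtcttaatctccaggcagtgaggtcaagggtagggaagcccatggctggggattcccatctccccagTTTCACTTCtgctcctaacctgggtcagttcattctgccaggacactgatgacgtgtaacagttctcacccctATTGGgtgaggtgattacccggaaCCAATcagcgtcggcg
H2-Q6: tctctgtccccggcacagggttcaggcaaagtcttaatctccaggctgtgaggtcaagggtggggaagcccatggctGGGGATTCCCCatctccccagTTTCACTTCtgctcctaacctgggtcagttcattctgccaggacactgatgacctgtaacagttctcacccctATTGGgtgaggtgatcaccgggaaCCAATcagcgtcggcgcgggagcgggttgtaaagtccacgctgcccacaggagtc
H2-K1: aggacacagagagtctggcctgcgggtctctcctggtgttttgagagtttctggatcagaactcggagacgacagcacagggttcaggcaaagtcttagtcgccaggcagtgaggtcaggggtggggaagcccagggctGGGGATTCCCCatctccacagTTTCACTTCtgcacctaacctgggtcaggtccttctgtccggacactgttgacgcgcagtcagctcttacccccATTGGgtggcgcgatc
The H2-Q6 and H2-Q7 promoters were 97.2% identical over 211 aligned positions. All 3 sequences hold the interferon element and a CCAAT box, and the full kappaB element is in H2-Q6 and H2-K1. At the same place the H2-Q7 window holds these letters without the final C, and is therefore not marked. Only the full 11 letters were searched, so the search cannot show whether H2-Q7 lacks a kappaB site.

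H2-Q7 fell by 17.7%. Its level was 641, 652, 765, 705 and 663 CPM in controls 1 to 5 and 566, 564, 576, 569 and 544 CPM in Areg libraries 1 to 5. Every Areg library lay below every control, and the Areg libraries were close together while control 3 was the highest. The means were 685 ± 50.9 CPM (SD, n = 5) in controls and 564 ± 11.9 CPM (SD, n = 5) with Areg. The log2 fold change was -0.28 (SE 0.05, edgeR adjusted p = 0.00165). It was -0.21 without controls 3 and 4 (edgeR adjusted p = 0.00048), and -0.16 once a trend with gene length and GC content was removed (edgeR adjusted p = 0.00285).

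H2-Q6 fell by 13.0%. It was at 549, 529, 592, 570 and 557 CPM in controls 1 to 5 and at 482, 477, 499, 474 and 499 CPM in Areg libraries 1 to 5. Again no Areg library reached the lowest control. The means were 559 ± 23.6 CPM (SD, n = 5) and 486 ± 11.9 CPM (SD, n = 5), or -0.20 on the log2 scale (SE 0.04, edgeR adjusted p = 0.00572). With the length and GC trend removed it was -0.10 and no longer passed (edgeR adjusted p = 0.0582). Together the pair of genes summed to 1245 ± 72.9 CPM (SD, n = 5) in controls and 1050 ± 13.9 CPM (SD, n = 5) with Areg, a ratio of 0.844.

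**Figure D2:**
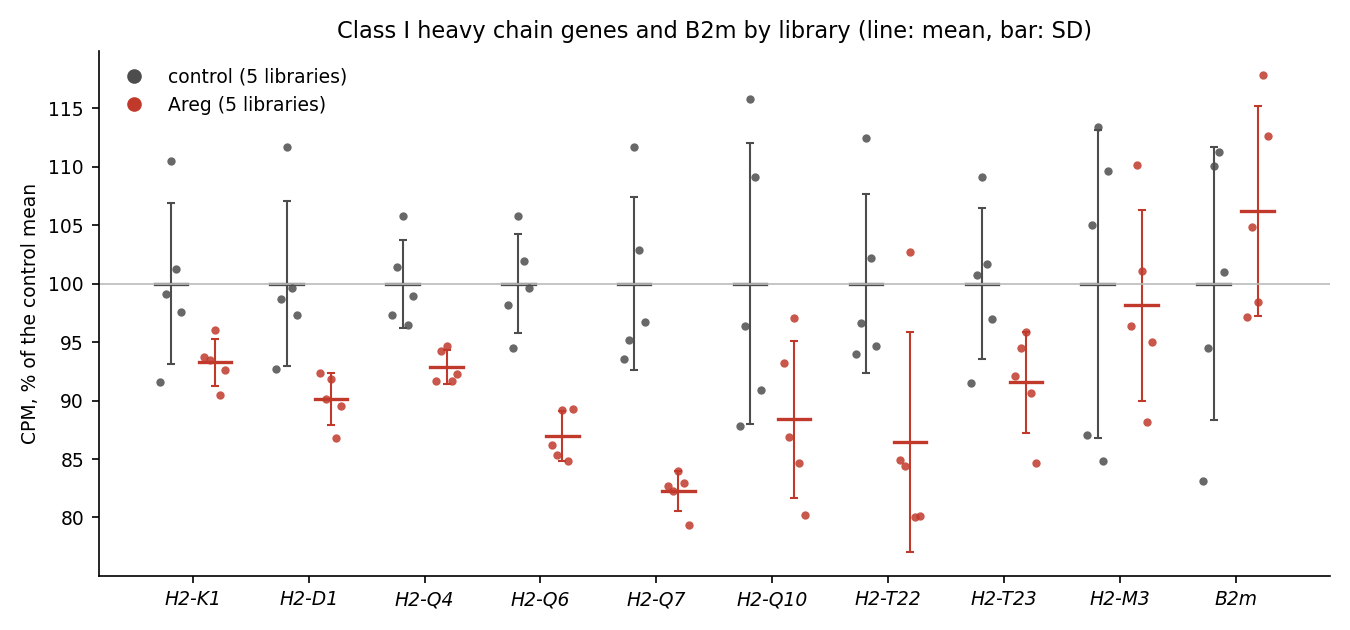
CPM as a percentage of each gene's control mean (y axis, which does not start at 0) for 9 heavy chain genes and B2m, 1 point per library (5 control, 5 Areg), with the group mean as a line and the SD as a bar. The Areg points of H2-Q6 and H2-Q7 lie below all control points, while those of B2m overlap the controls.

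These Q-region genes resemble each other closely, so how kallisto divides reads between them bears on their values. Of the distinct 31-base words in the transcripts of H2-Q6, 48.2% occur in no other gene, 24.6% are shared with H2-Q4 and 18.4% with H2-Q7. For H2-Q7 the unique share was 60.8%, with 22.4% shared with H2-Q10 and 15.5% with the pseudogene H2-Q5. Most H2-Q7 counts, 69.7% ± 1.18 (SD, n = 5) in controls and 67.1% ± 2.03 (SD, n = 5) with Areg, were assigned to one annotated retained-intron transcript, H2-Q7-206. That transcript was at 478 ± 39.4 CPM (SD, n = 5) in controls and 379 ± 16.4 CPM (SD, n = 5) with Areg, with no overlap between groups. The coding transcripts H2-Q7-204, at 88.1 CPM against 77.1 CPM, and H2-Q7-201, at 80.7 against 72.3 CPM, overlapped between groups. So did the coding transcript H2-Q7-203, which was slightly higher with Areg, at 23.5 CPM in controls and 26.0 CPM with Areg. H2-Q6 was counted through a single coding transcript. Transcripts were not tested one by one.

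**Figure D3:**
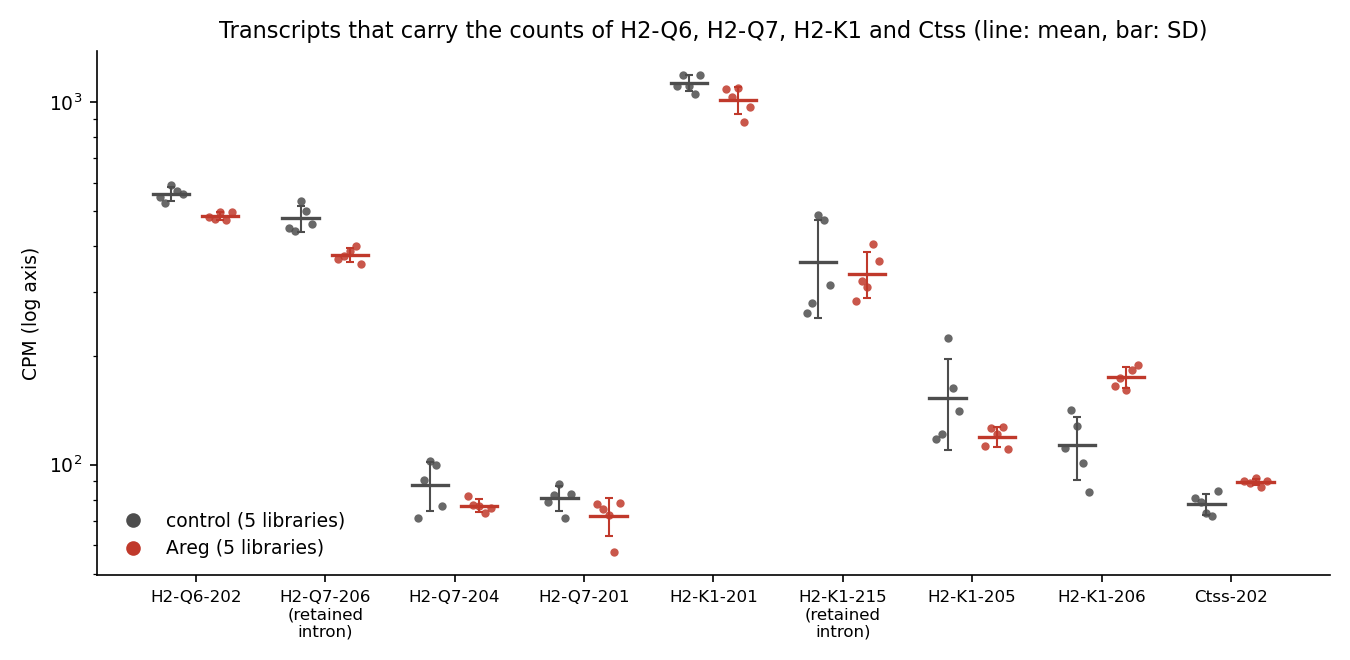
CPM on a log axis (y) of the transcripts that carry most counts of H2-Q6, H2-Q7, H2-K1 and Ctss, 1 point per library, with group mean (line) and SD (bar). The retained-intron transcript H2-Q7-206 lies at 359 to 401 CPM with Areg against 442 to 536 CPM in controls, and H2-K1-206 lies higher with Areg.

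H2-D1 and H2-K1 encode the classical heavy chains, the main peptide presenters, and were by far the most abundant heavy chain messages. H2-D1 was at 2784, 2965, 3354, 2992 and 2924 CPM in controls and 2775, 2708, 2759, 2607 and 2690 CPM with Areg. The groups did not overlap, by a narrow margin between control 1 and Areg 1, and the gene missed the threshold (log2 fold change -0.15, SE 0.05, edgeR adjusted p = 0.0627). Without control 1, the lowest of the controls, it was -0.17 and passed (edgeR adjusted p = 0.0257), but it was -0.09 without controls 3 and 4 (edgeR adjusted p = 0.114) and -0.04 with the length and GC trend removed (edgeR adjusted p = 0.548). H2-K1 was at 1919 ± 132 CPM (SD, n = 5) and 1790 ± 38.2 CPM (SD, n = 5), with overlap, or -0.10 on the log2 scale (SE 0.05, edgeR adjusted p = 0.197). It was -0.06 without control 3 and -0.04 without controls 3 and 4, and with the length and GC trend removed it was -0.10 and passed (edgeR adjusted p = 0.0477). Within H2-K1 the transcripts did not run in parallel. The coding transcript H2-K1-206 was at 113 ± 22.5 CPM (SD, n = 5) in controls and 174 ± 11.7 CPM (SD, n = 5) with Areg, with no overlap, and its share of the gene's counts went from 5.90% to 9.73%. The main transcript H2-K1-201 was at 1132 and 1015 CPM, with overlap.

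Among the remaining non-classical heavy chains, none passed edgeR's test, and DESeq2 called H2-Q4 (adjusted p = 0.0193) and H2-T22 (adjusted p = 0.0395) lower. H2-Q4 was at 659, 687, 716, 653 and 670 CPM in controls and 620, 638, 641, 620 and 625 CPM with Areg, groups that did not overlap (log2 fold change -0.11, SE 0.04, edgeR adjusted p = 0.0994), although its sign turned to 0.01 with the length and GC trend removed. H2-T22, a ligand of some gamma-delta T cells, was at 90.5, 93.0, 108, 98.3 and 91.1 CPM in controls and 81.7, 81.2, 98.9, 77.1 and 77.1 CPM with Areg. Areg 3 reached into the control range while the other 4 Areg libraries lay below it, and the log2 fold change of -0.21 (SE 0.07) had an edgeR adjusted p of 0.0541. Without Areg 3 it was -0.28 and passed (edgeR adjusted p = 0.00908), and without control 1 it was -0.23 and passed as well (edgeR adjusted p = 0.0484). It also passed with the length and GC trend removed (-0.18, edgeR adjusted p = 0.0487), and was -0.13 without controls 3 and 4 (edgeR adjusted p = 0.252). Its transcripts share 47.2% of their 31-base words with H2-T10.

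H2-T23, which encodes Qa-1, the ligand of inhibitory CD94/NKG2A receptors, was at 159 ± 10.3 CPM (SD, n = 5) and 146 ± 6.90 CPM (SD, n = 5), a log2 fold change of -0.13 (edgeR adjusted p = 0.108). Without control 1 it passed at -0.15 (edgeR adjusted p = 0.0421), and it was -0.07 without controls 3 and 4 and -0.06 with the trend removed. H2-Q10, a class I molecule that hepatocytes secrete, was at 69.6 ± 8.36 and 61.6 ± 4.67 CPM (SD, n = 5 each, log2 fold change -0.17, edgeR adjusted p = 0.134), and the log2 fold change was -0.05 without controls 3 and 4 and -0.04 with the trend removed. Of H2-Q10 counts, 49.7% ± 3.30 in controls and 42.9% ± 3.54 with Areg (SD, n = 5 each) were assigned to the retained-intron transcript H2-Q10-203. The coding transcript H2-Q10-201 held 50.3% in controls and 57.1% with Areg. The 8 hepatocyte markers summed to 995 to 1720 CPM in controls and 1138 to 1407 CPM with Areg, and their part in the H2-Q10 values was not tested. H2-M3, which presents formylated bacterial peptides, was at 11.1 and 10.9 CPM, and its log2 fold change of -0.02 had an interval of -0.23 to 0.19. H2-T24, H2-Q1 and H2-M2 were measured at 0.935 to 2.88 CPM as group means, with log2 fold changes of 0.38, 0.29 and -0.16 and edgeR adjusted p of 0.170, 0.428 and 0.692.

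Counted as a group, 12 of the 24 heavy chain genes were tested, 2 fell by edgeR, none rose and 10 did not pass, beside 8.32% of all genes called lower. The count depended on the tool: 5 fell by DESeq2 (H2-D1, H2-Q4 and H2-T22 added), 4 with upper-quartile factors, 3 by limma-voom and 2 without controls 3 and 4. Leaving out control 1 gave 5, and leaving out Areg 3 gave 3. Of the 12, 10 had a log2 fold change below 0 (51.3% of all genes tested), and the median was -0.14. An unadjusted p under 0.05 was reached by 7, or 58.3%, beside 31.4% of all genes tested. In 4 of them (H2-D1, H2-Q4, H2-Q6 and H2-Q7) every Areg library lay below every control, which held for 7.06% of all genes tested. No heavy chain lay higher in every Areg library, against 7.64% of all genes tested. Heavy chain genes share 31-base words, such as 24.6% of those of H2-Q6 with H2-Q4, so they do not count as independent genes. The summed level of all heavy chains was 7186 ± 454 CPM (SD, n = 5) in controls and 6485 ± 133 CPM (SD, n = 5) with Areg, a ratio of 0.902. Control 3 was the highest library at 7927 CPM, and over controls 1, 2 and 5 alone the mean was 6930 ± 198 CPM (SD, n = 3), a ratio of 0.936. Much of that sum comes from H2-K1 and H2-D1, at 4923 ± 342 and 4498 ± 102 CPM (SD, n = 5 each). In bulk RNA of this kind, fewer cells of a type and less RNA per cell cannot be told apart.

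B2m, the light chain with which class I heavy chains pair, did not pass the test. It was at 2639, 3001, 3496, 3532 and 3208 CPM in controls and 3084, 3329, 3127, 3743 and 3576 CPM with Areg. The groups overlapped, the means were 3175 ± 370 and 3372 ± 285 CPM (SD, n = 5 each), and the log2 fold change of 0.09 (interval -0.08 to 0.25) did not pass (edgeR adjusted p = 0.479). Its sign turned to -0.13 with the length and GC trend removed. Set against length as TPM, a length-scaled abundance, H2-K1 stood at 53.8% ± 3.40 of B2m in controls and 48.4% ± 1.90 with Areg (SD, n = 5 each). The same ratio for H2-D1 was 38.6% ± 3.70 and 33.4% ± 3.61. The difference between the heavy chains and B2m was not itself tested.

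The peptide supply for class I showed no gene past the threshold. Of the 11 class I genes that are not heavy chains, 0 were called by edgeR and 3 (27.3%) had an unadjusted p under 0.05, beside 31.4% of all genes tested, while DESeq2 and limma-voom each called 1, Psme1. Their median log2 fold change was -0.01. Tap1 was at 51.4 ± 3.62 CPM in controls and 45.5 ± 6.16 CPM with Areg (SD, n = 5 each), and its partner Tap2 at 37.7 and 36.1 CPM. For Tap1 the log2 fold change was -0.17 (edgeR adjusted p = 0.156), with Areg 3 at 55.5 CPM inside the control range and the other 4 Areg libraries below it. Without Areg 3 it was -0.25 and passed (edgeR adjusted p = 0.0224), and with the length and GC trend removed it was -0.00627 (edgeR adjusted p = 0.972). Tapasin was at 136 ± 5.50 and 127 ± 9.86 CPM (log2 fold change -0.10, edgeR adjusted p = 0.235). Erap1 was at 72.9 ± 8.22 and 80.3 ± 3.17 CPM, a log2 fold change of 0.14 (edgeR adjusted p = 0.185), yet its direction turned in the length-scaled fits, to -0.27 on log2(TPM + 1).

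The immunoproteasome genes were low and overlapped between groups. Psmb9 was at 3.77 ± 0.741 CPM in controls and 2.94 ± 0.283 CPM with Areg (SD, n = 5 each), or -0.34 on the log2 scale (SE 0.16, edgeR adjusted p = 0.157), and it passed only without control 1 (-0.46, edgeR adjusted p = 0.0479). Psmb10 was at 14.3 ± 3.44 and 12.0 ± 1.33 CPM (log2 fold change -0.23, edgeR adjusted p = 0.262). Controls 3 and 4 were its highest libraries. The log2 fold change of Psmb10 was -0.09 without control 3 and -0.00629 without controls 3 and 4. Psmb8 was at 27.2 and 27.0 CPM (log2 fold change -0.01, interval -0.14 to 0.12). Compared per length with the standard subunits they replace, Psmb8 stood at 30.0% ± 3.32 of Psmb5 in controls and 31.8% ± 1.48 with Areg. Psmb10 stood at 20.8% ± 5.07 of Psmb7 and then 15.9% ± 0.847, where controls 1, 2 and 5 alone gave 17.1% ± 0.823 (SD, n = 3). Psmb9 stood at 1.95% ± 0.272 of Psmb6 and then 1.51% ± 0.384 (SD, n = 5 each).

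Psme1 and Psme2 encode the alpha and beta subunits of the PA28 cap of the proteasome. Psme1 was at 62.8, 65.4, 67.9, 58.9 and 69.1 CPM in controls and 76.0, 73.3, 71.3, 67.9 and 74.5 CPM with Areg. Only Areg 4 lay within the control range. Its log2 fold change of 0.16 (SE 0.06) narrowly missed the threshold (edgeR adjusted p = 0.0524), and it passed under 10 of 23 alternative settings. Psme2 was at 44.9 ± 3.10 and 46.6 ± 3.05 CPM (log2 fold change 0.06, edgeR adjusted p = 0.579). Nlrc5, the class I activator, was at 33.1 ± 2.39 CPM in controls and 35.4 ± 4.17 CPM with Areg (SD, n = 5 each), a log2 fold change of 0.10 (interval -0.07 to 0.26, edgeR adjusted p = 0.419).

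On the class II side, 8 of 12 genes were tested and Ctss alone passed (12.5% of the 8, beside 16.7% of all genes tested). Cathepsin S degrades the invariant chain so that class II molecules can take up peptide. The gene lies at chr3:95526786-95556403 on the plus strand of GRCm38, and its promoter, chr3:95526536-95526785 on the plus strand in RefSeq's GRCm38.p6 table, is shown as that of the single gene of the set that rose. Capitals mark the interferon element letters, which end 7 bases before the start.
Ctss: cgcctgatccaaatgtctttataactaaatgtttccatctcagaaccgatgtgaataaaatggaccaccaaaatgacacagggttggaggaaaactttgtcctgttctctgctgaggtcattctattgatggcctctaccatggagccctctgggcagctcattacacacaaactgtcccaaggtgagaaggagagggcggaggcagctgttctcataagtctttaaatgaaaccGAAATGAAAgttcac
Ctss was at 88.7, 85.1, 76.8, 80.5 and 94.7 CPM in controls and 98.9, 98.6, 99.0, 94.9 and 104 CPM with Areg. The groups did not overlap, with control 5 and Areg 4 almost level. The means were 85.2 ± 6.98 and 99.0 ± 3.11 CPM (SD, n = 5 each), a rise of 16.1%, or 0.22 on the log2 scale (SE 0.06, edgeR adjusted p = 0.0150). The call was lost in the 3 length-scaled fits, at 0.19 to 0.21 (adjusted p = 0.0591 to 0.143, edgeR or limma), and with the length and GC trend removed, at 0.11 (edgeR adjusted p = 0.121). All of its 31-base words are its own.

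The class II chains themselves did not pass. H2-Aa, the I-A alpha chain, was at 88.7 ± 6.87 CPM in controls and 84.8 ± 5.59 CPM with Areg (SD, n = 5 each), a log2 fold change of -0.06 with an interval of -0.19 to 0.07. Its partner H2-Ab1 was at 75.0 ± 10.7 and 69.0 ± 4.48 CPM (-0.12, interval -0.29 to 0.06), and the I-E beta chain H2-Eb1 at 55.9 ± 4.36 and 52.8 ± 4.04 CPM (-0.08, interval -0.22 to 0.06). In controls, 61.1% of H2-Eb1 counts were assigned to H2-Eb1-205, a transcript annotated as a target of nonsense-mediated decay. Both I-A chains turned to slightly above 0, 0.01 and 0.03, without controls 3 and 4. The summed class II chains were at 220 ± 20.5 and 207 ± 12.1 CPM.

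Cd74, the invariant chain, was at 321, 305, 403, 412 and 325 CPM in controls and 296, 295, 328, 316 and 303 CPM with Areg. The high values are those of controls 3 and 4, and the remaining controls overlap the Areg libraries. The log2 fold change was -0.20 (SE 0.08, edgeR adjusted p = 0.0993) and only -0.04 without controls 3 and 4 (edgeR adjusted p = 0.588), while without control 2 it passed (-0.24, edgeR adjusted p = 0.0357). H2-DMa and H2-DMb1, the chains of the peptide editor, were at 2.45 to 3.19 CPM as group means, with log2 fold changes of -0.25 and -0.20 and wide intervals that cross 0. Ciita, the class II activator, was near the lower limit of the test at 0.544 ± 0.109 and 0.666 ± 0.202 CPM (log2 fold change 0.32, edgeR adjusted p = 0.534). H2-Ke6 was at 10.6 and 9.70 CPM (-0.12, edgeR adjusted p = 0.371).

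**Figure D4:**
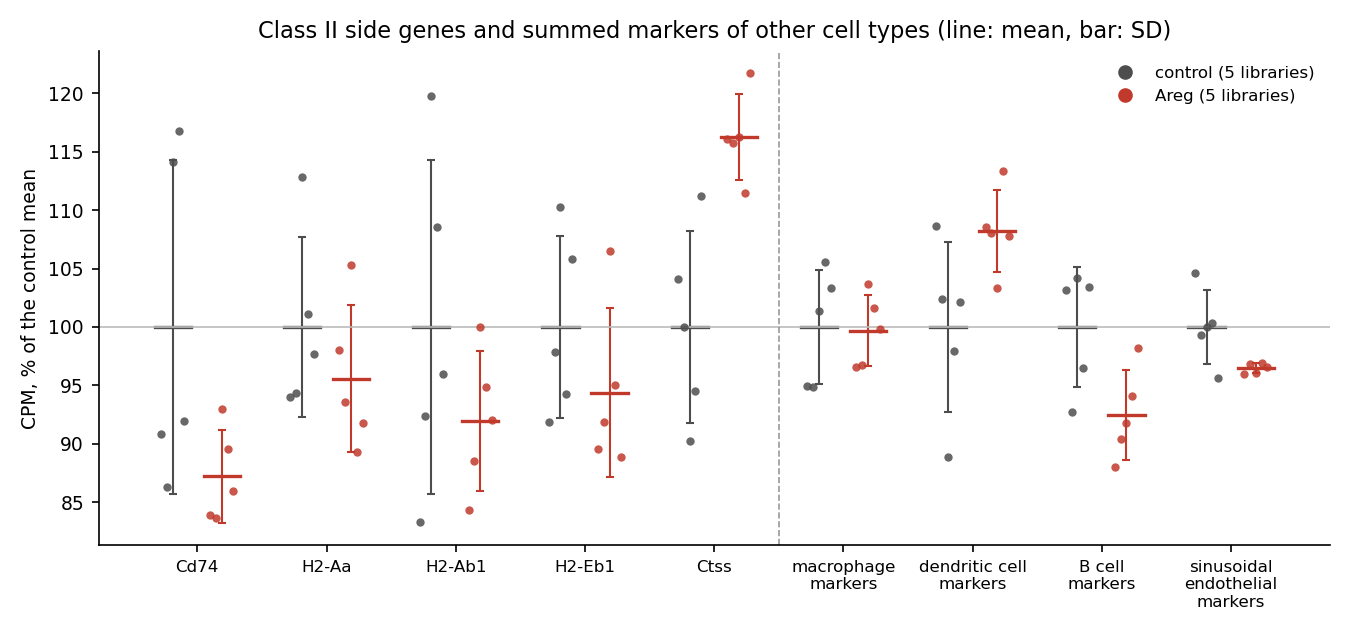
CPM as a percentage of the control mean (y axis, which does not start at 0) for class II side genes, and for summed markers of macrophages, dendritic cells, B cells and sinusoidal endothelial cells, 1 point per library, with group mean (line) and SD (bar). Cd74 is highest in controls 3 and 4, and the summed macrophage markers overlap between groups at 777 to 864 and 791 to 849 CPM.

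Class II genes and Ctss are typical of macrophages, dendritic cells and B cells. Beside the macrophage sums given above, the 8 dendritic cell markers summed to 89.8 to 110 CPM in controls and 104 to 115 CPM with Areg, of which 5 were tested and Cd209a rose. The 6 B cell markers summed to 10.6 ± 0.545 and 9.80 ± 0.411 CPM (SD, n = 5 each), with 0 of the 2 tested called by edgeR and 0 at an unadjusted p under 0.05. Their part in the class II and Ctss values was not tested.

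Set per length, the order of levels in controls was B2m at 7516 TPM, H2-K1 at 4050 TPM and H2-D1 at 2884 TPM, then H2-Q4 at 648, Cd74 at 521, H2-Q7 at 494 and H2-Q6 at 476 TPM. By counts H2-D1 stood above H2-K1, at 3004 against 1919 CPM in controls. Of the H2-K1 counts in controls, 18.7% were assigned to H2-K1-215, a retained-intron transcript of only 457 bases. That short transcript weighs more per length and also enters the ratios of H2-K1 to B2m and of H2-Aa to H2-K1. Class II chains lay far below the classical heavy chains, with H2-Aa at 151 TPM, H2-Ab1 at 118 TPM and H2-Eb1 at 99.6 TPM. As a ratio per library, H2-Aa stood at 3.76% of H2-K1 in both groups. The class I activator Nlrc5 was at 17.0 TPM, and the class II activator Ciita, at 0.19 TPM, was the lowest of the 32 tested genes.

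**Figure D5:**
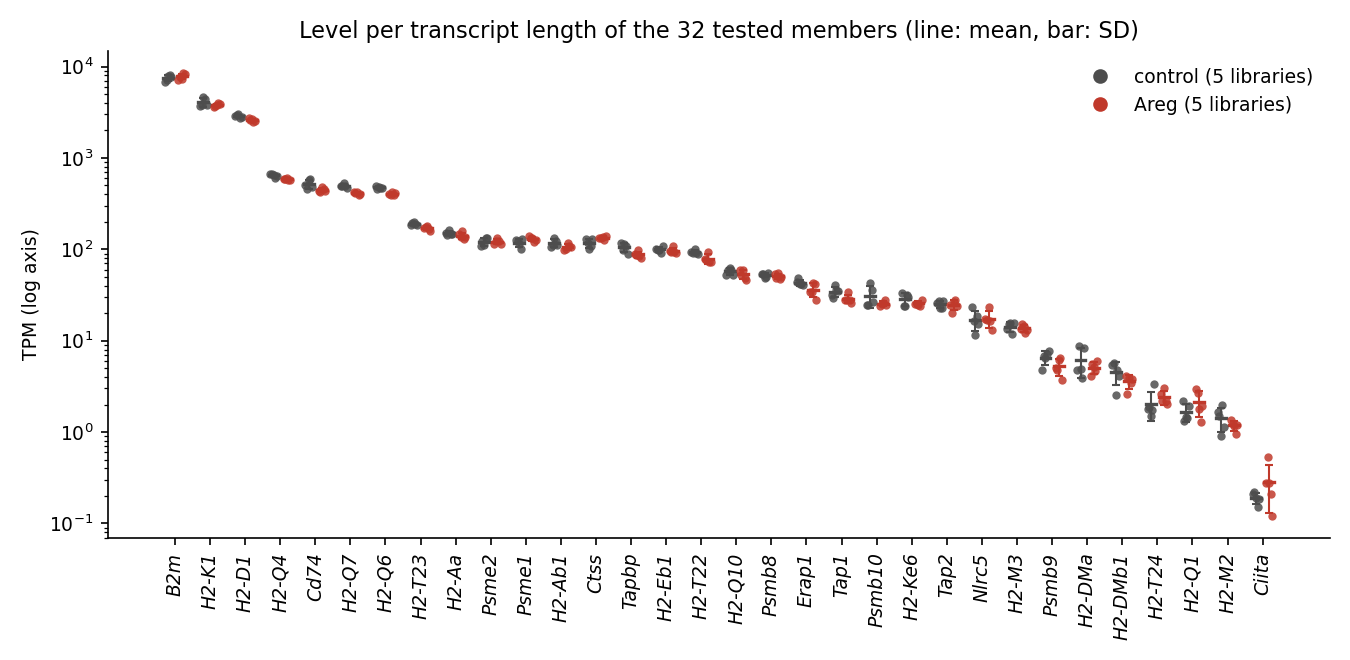
TPM on a log axis (y) of the 32 tested genes in order of the control mean, 1 point per library, with group mean (line) and SD (bar). B2m, H2-K1 and H2-D1 lead at 7516, 4050 and 2884 TPM in controls, and Ciita is the lowest.

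The promoters of the set were searched for the elements known from MHC genes. A promoter was found for 41 of the 48 genes, and the same 250 bases were searched in 27025 genes. The kappaB element, in the letters shown above for H2-K1, occurs in 9 of all those promoters (0.0333%), and 3 of the 9 are H2-K1, H2-D1 and H2-Q6. Those fixed letters are the ones of an MHC promoter, and other forms of kappaB sites were not searched. The count therefore cannot show how common kappaB sites are in the set or in other genes. The interferon element letters occur in 7.30% of all promoters and in 8 of 22 heavy chain promoters (36.4%), among them 8 of the 10 tested heavy chains with a promoter. CCAAT occurs in 37.5% of all promoters, in 19 of 22 heavy chain promoters and in 8 of 9 class II side promoters. The letters TGACGN, searched as a CRE-like X2 box, occur in 19.8% of all promoters, 11 of 22 heavy chain and 1 of 9 class II side promoters. The letters TTCNNNGAA, searched as the GAS element, occur in 8.13% of all promoters, 2 of 22 heavy chain promoters (9.09%) and 1 of 9 class II side promoters. The class II X1 box was searched as a single fixed 14-letter pattern. That pattern occurs in 9 of all promoters and in 2 of 9 class II side promoters, those of H2-DMb1 and H2-Ob. Other forms of the box were not searched, so this count cannot show whether the remaining class II promoters, such as that of H2-Aa, lack it. Both called heavy chains and H2-K1, which was not called, hold the interferon element. By RefSeq's starts Psmb9 and Tap1 lie head to head, with 225 bases between them (chr17:34187331-34187555). In GENCODE M21, used for the counts, the genes overlap: Psmb9 (minus strand) reaches chr17:34187764 and Tap1 (plus strand) starts at chr17:34187553. The transcript Psmb9-204 shares 13.8% of its 31-base words with Tap1. The log2 fold changes of Psmb9 and Tap1 were -0.34 and -0.17, and their counts are not independent.

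Of 15 MHC promoter factors tested, 1 rose and 1 fell, around a median log2 fold change of -0.03. Over all genes tested, 8.34% were called higher and 8.32% lower. Nfkb1, the p50 subunit precursor of NF-kappaB, went from 456 ± 11.1 to 513 ± 20.4 CPM (SD, n = 5 each, log2 fold change 0.17, edgeR adjusted p = 0.0146), with no overlap. The coactivator Crebbp fell by 0.17 on the log2 scale (edgeR adjusted p = 0.0489). Irf1, an interferon-induced activator of class I genes, was at 61.1 ± 2.55 and 58.7 ± 4.08 CPM (edgeR adjusted p = 0.530), and Rfx5, a subunit of the X-box-binding complex, at 19.1 ± 1.77 and 16.9 ± 1.59 CPM (edgeR adjusted p = 0.168).

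Of 15 interferon receptor and JAK-STAT genes, 13 were tested, 4 rose and none fell, with a median of 0.08, beside 8.34% of all genes called higher and 8.32% called lower. Socs3, a feedback inhibitor of JAK-STAT signalling, went from 295 ± 13.4 to 425 ± 33.8 CPM (SD, n = 5 each, log2 fold change 0.52, edgeR adjusted p = 2.1e-05). The kinase Jak2 rose by 0.39 (edgeR adjusted p = 0.00476), Irf9 by 0.29 (edgeR adjusted p = 0.0121) and the phosphatase Ptpn2 by 0.19 (edgeR adjusted p = 0.0490). Of the 4 that rose, Socs3 and Ptpn2 are known as inhibitors of the pathway.

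In the surrounding machinery 4 of the 41 genes tested were called, beside 16.7% of all genes tested. Of 17 standard proteasome subunits, 1 rose, Psma4 (0.22, edgeR adjusted p = 0.00485), and the list's median was 0.09. Of 14 class I loading chaperones and peptidases, 2 rose and none fell, with a median of 0.09: Lap3, a leucine aminopeptidase, by 0.27 (edgeR adjusted p = 0.00669) and Hspa5, the chaperone BiP, by 0.23 (edgeR adjusted p = 0.0148). Of 10 class II proteases and helpers tested, 1 fell, none rose and the median was -0.04. That gene was Ctsd, the lysosomal protease cathepsin D, at 1386 ± 86.7 CPM in controls and 1166 ± 43.6 CPM with Areg (SD, n = 5 each, log2 fold change -0.25, edgeR adjusted p = 0.00395), opposite in sign to Ctss.

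Outside the H2- symbols, 9 class I-like molecules were tested, 1 rose and 1 fell, around a median of 0.05, beside 16.7% of all genes called. Raet1d, a ligand of the activating receptor NKG2D, went from 6.12 ± 0.773 to 10.2 ± 0.913 CPM (SD, n = 5 each), with no overlap (log2 fold change 0.74, edgeR adjusted p = 0.000362). Fcgrt, the heavy chain of the neonatal Fc receptor, fell by 0.22 on the log2 scale (edgeR adjusted p = 0.0407). Of 7 T cell costimulators tested, Icosl, the ligand of ICOS, went from 14.1 ± 2.22 to 7.86 ± 0.701 CPM (SD, n = 5 each, log2 fold change -0.84, edgeR adjusted p = 0.000137), with no overlap. The other 6 did not pass, and the median was 0.06, beside 8.32% of all genes called lower.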

How the data were processed

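Poly-A RNA of 10 stellate cell libraries was sequenced after TruSeq preparation, per the labels' protocols. The authors deposited kallisto's expected counts (estimated counts) per transcript, which need not be whole. The deposited files also give TPM per transcript, scaled to transcript length and to 1 total per library, per the file headers. Tools listed in the submitters' processing notes are bcl2fastq 2.19, kallisto 0.44.0 and DESeq2, with GRCm38.p6 as the build. Which transcript set and strand setting kallisto used is not given in the sources used here.

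Transcripts were joined to genes through GENCODE M21. It matched 116816 of 118489 transcripts, and the 1673 others held 0.736 to 0.778% of counts. Estimated counts were summed per gene and rounded. Areg was compared with control with edgeR 4.0.16 in R 4.3.3, by its quasi-likelihood test with robust estimation, TMM factors and no covariates, after filterByExpr (minimum count 10, minimum total 15), which left 13362 genes, with Benjamini-Hochberg adjustment. Intervals are 95% intervals of the fit. CPM values are TMM-scaled. Within each group, no pair of libraries was as alike as sampling noise alone would make it (lowest chi-square per degree of freedom 3.74), and each counted as 1 sample. The scripts were tested on simulated data.

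The genes, the 16 lists beside them and the tests were chosen with earlier results of these data known. All tested genes of the set are named; of each list, up to 4 genes past the threshold with the smallest p are named, plus Irf1 and Rfx5 whatever their p; 1 further gene of that rule is not reported here. Of marker lists not fully described in the report, 1 of 8 hepatocyte markers (Cyp2e1) and 1 of 4 tested cholangiocyte markers (Spp1) rose, and 0 of 3 mesothelial markers passed edgeR's test (0 at an unadjusted p under 0.05). Shared 31-base words were counted over the matched transcripts. Promoters are RefSeq's. Alternatives covered scaling, filters, DESeq2 1.42.0, limma 3.58.1, TPM scales, the replicate block and each library left out; one was added after seeing the data. Reads that fit several transcripts are divided by kallisto's estimate, which leaves values of near-identical and overlapping genes uncertain.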

Additional observations from a re-analysis of the deposited data

Results flagged for a closer look

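H2-T22 in the Areg group had 1 library far from the others. Areg 3 was at 98.9 CPM, the next highest library at 81.7 CPM and the lowest at 77.1 CPM, so the gap was 0.787 of the group's range, above Dixon's 95% critical value of 0.71 for 5 samples. It was the single such case among 64 groups of libraries examined, and chance alone gives about 1 in 20.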

How the results depend on the processing

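Over 23 alternatives, 677 of 731 values of the 32 genes kept direction and side of the threshold; 22 reversed, 5 lost their call and 27 gained one. H2-Q7 passed in all 23. The 2226 genes called became 856 on log2(TPM + 1), 868 on log2(TPM + 0.1) and 1149 with a transcript length offset, of which 322, 325 and 617 were higher, and 1816 (1121 higher) with the length and GC trend removed, an alternative chosen after seeing the data. Leaving out 1 library gave 1364 (without Areg 2) to 2314. The 3 genes of the set called became 5 with upper-quartile factors, 7 by DESeq2 and 5 by limma-voom, 4 with the trend removed (H2-K1, H2-T22 and Psme1 gained a call, H2-Q6 and Ctss lost theirs), and 3 to 7 with 1 library left out (7 without control 1, 5 without Areg 3). With a replicate block 6 were called (Cd74, H2-T22 and Psme1 added) and 2357 genes in all; same-numbered libraries correlated at -0.0465 to 0.144, 2 of 5 controls matched their own number best, and the numbers were not taken as pairs. Direction turned for these: with the trend removed, B2m -0.13, H2-Ab1 0.0162, H2-Q4 0.00903, Psmb8 0.0778, Psme2 -0.000954, Tap2 0.12 and Tapbp 0.0641; without controls 3 and 4, H2-Aa 0.00809 and H2-Ab1 0.026; on the TPM scales, Erap1 -0.27 and -0.27, Psme2 -0.000129 and -0.000107; with the length offset, Erap1 -0.23; with no filter, Psmb8 0.00559. With 1 library left out, H2-M3 ranged from -0.0695 to 0.0261 and Psmb8 from -0.0395 to 0.0169. The cause was not tested. Depth limits the 16 genes with 41 counts or fewer.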

Other observations

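H2- genes not annotated as protein-coding, which the rule for the set left out, were also counted, and 4 of them passed the filter on low counts. They are named here after their values were seen. H2-K2 was at 18.0 ± 1.94 CPM in controls and 13.0 ± 0.843 CPM with Areg (SD, n = 5 each), or -0.46 on the log2 scale (SE 0.09, edgeR adjusted p = 0.00195), with no overlap between groups. H2-Q5 fell from 73.8 ± 8.54 to 58.6 ± 3.02 CPM (-0.33, SE 0.07, edgeR adjusted p = 0.00514) and H2-T10 from 32.1 ± 2.35 to 25.7 ± 1.73 CPM (-0.32, SE 0.07, edgeR adjusted p = 0.00451), each with no overlap. On the TPM scale H2-Q5 turned the other way, at 203 ± 24.1 in controls and 211 ± 25.9 with Areg. H2-T-ps was at 5.27 ± 0.782 and 4.28 ± 0.251 CPM and did not pass (-0.30, edgeR adjusted p = 0.117). H2-Q5 shares 31-base words with H2-Q7, and H2-T10 with H2-T22, so their counts are not independent of those genes.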
